A study of Homo sapiens with 4 samples.

Results

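The 10 genes described here encode enzymes that make or consume ceramide around the sphingomyelin cycle: the ceramide synthases CERS2, CERS4, CERS5 and CERS6, the sphingomyelin synthases SGMS1 and SGMS2, the sphingomyelinases SMPD1, SMPD2 and SMPD4, and the glucosylceramide synthase UGCG. They were taken by name from the deposited table, and all 10 were among its 28973 genes. All 10 also passed the filter on low counts, as did 17449 genes in all. RNA sequencing was done on TOV-112D, an established human ovarian cancer cell line, in 2 libraries labelled BSA (bovine serum albumin, the negative control) and 2 libraries labelled PA (palmitic acid), all at a labelled 200 µM for 24 h. Palmitic acid, a common saturated fatty acid, is usually carried on albumin when added to cultures. The other labels of the PA libraries conflict with this: SPTLC2 knockdown is written in their description, and the protocol text of all 4 libraries also lists cells with a control hairpin and with a hairpin against ZDHHC15. In TMM-normalised CPM (read counts scaled to library size and adjusted for composition), SPTLC2 stood at 51.0 and 33.9 in the BSA libraries and at 75.4 and 75.7 in the libraries labelled PA. ZDHHC15 stood at 9.74 and 7.06 in BSA and at 6537 and 7298 in the libraries labelled PA. Neither level is that of a knockdown, so the directions below rest on the title and treatment labels alone. ZDHHC15 had the largest log2 fold change of all tested genes (9.69, PA over BSA). Palmitic acid and the high ZDHHC15 level therefore cannot be told apart for any difference below. The labels do not state whether libraries of a group were separate cultures, and the p-values therefore cover a spread between libraries that may be technical.

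Palmitic acid, as palmitoyl-CoA, is a substrate of serine palmitoyltransferase, which starts the synthesis of sphingolipids. Ceramide synthases attach a fatty acyl chain to a sphingoid base, and each member of the family prefers chains of certain lengths. Sphingomyelin synthases then move a phosphocholine head group onto ceramide, UGCG adds glucose instead, and sphingomyelinases release ceramide again from sphingomyelin in the lysosome or in other membranes. Ceramide is known as a lipid that can promote cell death when it accumulates in cells given saturated fatty acids.

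The promoters of 3 of these genes are shown because the results below turn on them. SMPD1 had the largest difference between the groups, SGMS1 was the other gene higher than both BSA libraries that passed a test once the GC trend between libraries was removed, and UGCG was a gene whose direction depended on the BSA library. Each sequence is the RefSeq promoter window on build GRCh38.p14, of 300 bases, read 5′ to 3′ on the strand of the gene, with GC boxes (GGGCGG on either strand) in capitals. SMPD1 is at chr11:6390224-6390523 on the plus strand, SGMS1 at chr10:50623907-50624206 on the minus strand and UGCG at chr9:111896564-111896863 on the plus strand. The SGMS1 window lies inside the deposited span of that gene, whose 5′ end is at 50625163, so it is not at the outermost start.
SMPD1: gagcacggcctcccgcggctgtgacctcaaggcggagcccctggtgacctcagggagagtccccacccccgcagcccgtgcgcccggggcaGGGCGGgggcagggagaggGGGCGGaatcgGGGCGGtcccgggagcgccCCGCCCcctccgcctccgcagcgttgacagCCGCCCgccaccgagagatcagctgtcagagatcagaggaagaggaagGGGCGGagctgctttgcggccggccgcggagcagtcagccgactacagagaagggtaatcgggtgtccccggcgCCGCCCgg
SGMS1: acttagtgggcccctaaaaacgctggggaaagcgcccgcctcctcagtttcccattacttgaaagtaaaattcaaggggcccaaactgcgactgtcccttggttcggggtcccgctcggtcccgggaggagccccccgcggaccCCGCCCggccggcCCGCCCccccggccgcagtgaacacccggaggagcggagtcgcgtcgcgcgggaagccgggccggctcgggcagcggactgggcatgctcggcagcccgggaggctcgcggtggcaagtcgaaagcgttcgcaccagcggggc
UGCG: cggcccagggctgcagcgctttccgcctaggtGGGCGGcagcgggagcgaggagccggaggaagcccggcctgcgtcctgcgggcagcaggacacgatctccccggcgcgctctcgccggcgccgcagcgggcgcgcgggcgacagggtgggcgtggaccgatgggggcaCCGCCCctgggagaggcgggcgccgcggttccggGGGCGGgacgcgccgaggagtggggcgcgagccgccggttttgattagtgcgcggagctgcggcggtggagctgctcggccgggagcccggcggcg
The SMPD1 window held 7 GC boxes and was 74.0% G and C. The SGMS1 window held 2 GC boxes and was 70.3% G and C, and the UGCG window held 3 and was 79.0% G and C. RefSeq held 11 windows for 8 of the 10 genes, and 9 of the 11 had a GC box, a motif that 45% of all 35116 windows hold. The windows printed here were richer in G and C than the median of all windows (58.7%). The E-box (CACGTG on either strand), which 7.26% of all windows hold, was in none of the 11. The CCAAT box (CCAAT on either strand), which 34.6% of all windows hold, was in 3 of the 11. The AP-1 site (TGACTCA on either strand), which 4.95% hold, was in 1. The matches describe letters, not binding.

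Total counts ran from 23722074 to 31695944 per library. Replicate agreement was poorer in BSA, where the log2 ratio between replicates had an SD of 1.05 over all tested genes, than in the libraries labelled PA, where it was 0.483. In BSA the ratio moved with transcript GC content: BSA replicate 2 over BSA replicate 1 had a median of -1.46 (log2) in the lowest of 10 GC bins and of 0.39 in the highest. Of the epithelial keratin genes, KRT8 stood at 936 to 1791 CPM and KRT18 at 554 to 788, while the epithelial markers EPCAM, CDH1 and KRT19 stayed below 1 CPM in every library. Of the 5 ovarian tumour markers MSLN stood at 96.1 to 272 CPM, MUC16 at 12.1 to 43.7 and PAX8 at 2.61 to 7.79, while ESR1 stood at 0.65 to 1.31 and WT1 at 0 to 0.17. Their summed level was 115.4 CPM in each BSA library and 323.7 and 316.9 in the libraries labelled PA. Summed over the 5 endothelial markers the level was 0.536 and 1.44 CPM in BSA and 3.75 and 3.31 in the libraries labelled PA. Over the 4 leukocyte markers in the table it was at most 2.13 CPM, and over the 4 red cell markers at most 0.77. Of the 3 fibroblast markers in the table only COL1A1 reached 1 CPM in every library (104 to 148). The part of these cell types in the results was not tested.

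All 10 genes had a positive log2 fold change (PA over BSA) in the test across all genes, with a median of 0.51. Over all 17449 genes tested 44.1% had a positive value, and the median was -0.12. For 6 of the 10 genes (CERS2, CERS4, CERS5, SGMS1, SMPD1 and SMPD2) both libraries labelled PA lay above both BSA libraries, as they did for 28.9% of all genes. None of the 10 lay below both, against 29.1% of all genes. With edgeR's quasi-likelihood test and Benjamini-Hochberg adjustment over all genes, 0 of the 10 passed at an adjusted p under 0.05, and 0% of all genes did. An unadjusted p under 0.05 was reached by 4 of the 10, SMPD1, SGMS1, CERS4 and SMPD2, all higher, against 13.1% of all genes higher and 11.2% lower. DESeq2 called SMPD1, SGMS1 and CERS4 higher, where it called 6.04% of all genes higher and 4.41% lower. Leaving out PA replicate 1 or PA replicate 2 left SMPD1 as the single gene of the 10 at an unadjusted p under 0.05, against 4.42% and 3.88% of all genes higher, in fits with 1 PA library whose spread comes from the BSA replicates. Without BSA replicate 1 edgeR called 8 of the 10 higher and 0 lower, against 25.3% of all genes higher and 22.6% lower. With BSA replicate 2 left out, 7 of the 10 were called higher and 2 (CERS6 and SGMS2) lower, against 27.3% and 30% of all genes, in fits whose spread comes from the PA replicates. In bulk RNA, a change per cell and a change in the share of cells with the transcript cannot be told apart.

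**Figure D1:**
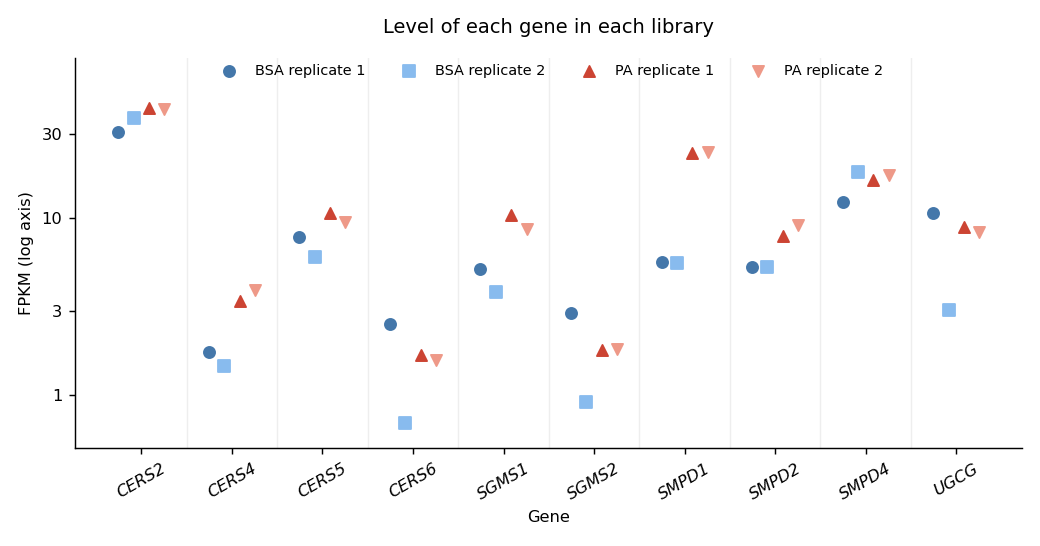
Level of each of the 10 genes in each of the 4 libraries, in the authors' FPKM on a log axis, with 1 point per library. The SMPD1 points of the libraries labelled PA (23.5 and 23.7) lie far above those of BSA (5.68 and 5.59), whereas for CERS6, SGMS2 and UGCG both PA points lie between the BSA points.

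Among the ceramide synthases CERS2 was the most abundant per length. The file annotates CERS2 and CERS4 as synthases of very long chains and CERS5 and CERS6 as N-palmitoyltransferases, enzymes that place a palmitoyl chain on the sphingoid base. In FPKM (read counts scaled by the authors to gene length and library total), CERS2 stood at 30.5 and 36.9 in BSA and at 41.7 and 41.3 in the libraries labelled PA. The groups did not overlap, but the gap to the higher BSA library was smaller than the gap between the BSA libraries, and the log2 fold change was 0.37 ± 0.22 (SE; edgeR adjusted p = 0.33). CERS2 (ENSG00000143418, hg38 chromosome 1, 150960583 to 150975003, minus strand) overlaps SETDB1 on the opposite strand over 4162 bases. SETDB1 held 1170 to 2421 counts per library, so if strand was not used some reads cannot be assigned between these genes.

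CERS4, which was low, had a log2 fold change close to that of SGMS1 in the test across all genes. It stood at 1.75 and 1.46 FPKM in BSA and at 3.40 and 3.95 in the libraries labelled PA, and its counts were 204 and 188 against 409 and 380. Both PA libraries were above both BSA libraries by more than the gap within either group. The log2 fold change was 1.26 ± 0.31 (SE), or 2.40-fold, with an edgeR unadjusted p of 0.00929 and adjusted p of 0.11. CERS4 lies at hg38 chromosome 19, 8206736 to 8262421, plus strand (ENSG00000090661). With the GC and length trend described below removed, the log2 fold change of CERS4 was 1.07 and that of SGMS1 1.45. The PA mean of CERS4 was above BSA replicate 1 by 1.16 and above BSA replicate 2 by 1.38 on the log2 CPM scale.

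The palmitoyl-preferring synthases CERS5 and CERS6 had unlike values across libraries. CERS5 stood at 7.84 and 6.05 FPKM in BSA and at 10.7 and 9.48 in the libraries labelled PA. The groups did not overlap, and the log2 fold change was 0.62 ± 0.24 (SE; edgeR adjusted p = 0.207). CERS6 stood at 2.52 and 0.695 FPKM in BSA and at 1.68 and 1.58 in the libraries labelled PA, so that BSA replicate 1 was the highest library and BSA replicate 2 the lowest. Its log2 fold change of 0.10 ± 0.62 (SE; edgeR adjusted p = 0.932) was small beside its error. On the log2 CPM scale the PA mean of CERS6 was below BSA replicate 1 (-0.54) and above BSA replicate 2 (1.27). The difference in response between CERS5 and CERS6 was not tested. CERS5 lies at hg38 chromosome 12, 50129289 to 50167533, minus strand (ENSG00000139624), and CERS6 at chromosome 2, 168456249 to 168775134, plus strand (ENSG00000172292).

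The sphingomyelin synthases had unlike values. SGMS1, the synthase of the Golgi, stood at 5.14 and 3.82 FPKM in BSA and at 10.4 and 8.72 in the libraries labelled PA. Every PA library was above every BSA library, and the gap between the groups exceeded that within them. The log2 fold change was 1.17 ± 0.27 (SE), or 2.25-fold, with an edgeR unadjusted p of 0.00706 and adjusted p of 0.0992. SGMS2, the synthase that also acts at the plasma membrane, stood at 2.90 and 0.913 FPKM in BSA and at 1.81 and 1.82 in the libraries labelled PA. Both PA values lay between the BSA values, and the log2 fold change was 0.01 ± 0.57 (SE; edgeR adjusted p = 0.991). Over BSA replicate 1 the PA mean of SGMS2 was -0.58 and over BSA replicate 2 it was 1.03 on the log2 CPM scale. SGMS1 lies at hg38 chromosome 10, 50305586 to 50625163, minus strand (ENSG00000198964), and SGMS2 at chromosome 4, 107824563 to 107915047, plus strand (ENSG00000164023).

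UGCG, which makes glucosylceramide and so opens the way to glycosphingolipids, showed the same pattern as CERS6 and SGMS2. It stood at 10.8 and 3.04 FPKM in BSA and at 8.95 and 8.37 in the libraries labelled PA. The PA libraries lay close together between the BSA libraries, and the log2 fold change was 0.41 ± 0.59 (SE; edgeR adjusted p = 0.684). The PA mean was below BSA replicate 1 (-0.22) and above BSA replicate 2 (1.56) on the log2 CPM scale. UGCG lies at hg38 chromosome 9, 111896814 to 111935369, plus strand (ENSG00000148154).

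**Figure D2:**
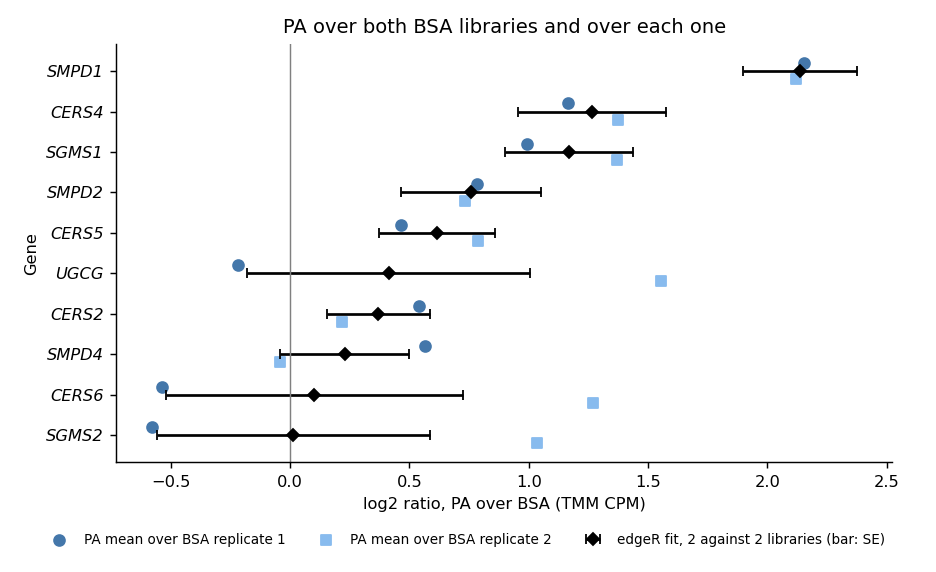
Log2 ratio of PA over BSA for each of the 10 genes, from the edgeR fit with its SE (diamonds), and as the mean of the libraries labelled PA over BSA replicate 1 (circles) or BSA replicate 2 (squares) in TMM CPM. The SMPD1 ratios lie together (2.15 and 2.12), while the UGCG ratios lie on both sides of 0 (-0.22 and 1.56).

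SMPD1, the acid sphingomyelinase of the lysosome, had the largest difference of the 10 genes. It stood at 5.68 and 5.59 FPKM in BSA and at 23.5 and 23.7 in the libraries labelled PA, with counts of 446 and 486 against 1911 and 1538. Libraries of a group were nearly equal, and the groups were far apart. In CPM the level was 15.1 ± 0.221 in BSA and 66.3 ± 0.832 in the libraries labelled PA (SD, n = 2). The log2 fold change was 2.14 ± 0.24 (SE), or 4.4-fold, with an edgeR unadjusted p of 0.00028 and an adjusted p of 0.0589, which missed the threshold. The smallest adjusted p of any gene in that test was 0.0544. Over the 15 alternatives the SMPD1 log2 fold change lay between 1.89 and 2.18 and passed in 7, DESeq2 among them (adjusted p = 3.61e-07). SMPD1 lies at hg38 chromosome 11, 6390440 to 6394998, plus strand (ENSG00000166311), and no other row of the table overlaps it.

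The neutral sphingomyelinases differed less. SMPD2 stood at 5.30 and 5.30 FPKM in BSA and at 7.95 and 9.12 in the libraries labelled PA. The groups did not overlap, and the log2 fold change was 0.76 ± 0.29 (SE), with an edgeR unadjusted p of 0.0488 and adjusted p of 0.204. SMPD4 stood at 12.3 and 18.1 FPKM in BSA and at 16.5 and 17.7 in the libraries labelled PA. BSA replicate 2 was the highest library, and the log2 fold change was 0.23 ± 0.27 (SE; edgeR adjusted p = 0.617). That value was -0.12 with the GC and length trend removed. SMPD4 has pseudogene copies with similar sequence, so its counts are uncertain, and it overlaps MZT2B on the opposite strand over 1014 bases. SMPD2 lies at hg38 chromosome 6, 109440724 to 109443919, plus strand (ENSG00000135587), and SMPD4 at chromosome 2, 130151392 to 130182750, minus strand (ENSG00000136699).

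Among the 10 genes, those of lowest GC content had the lowest ratios between the BSA libraries, but the ratios did not follow GC content gene by gene. CERS6, UGCG and SGMS2 had transcripts of 41.6%, 40.9% and 36.8% G and C, and their log2 ratios of BSA replicate 2 over replicate 1 were -1.81, -1.77 and -1.61. Over the tested genes within 1 percentage point of the same GC content the median ratios were -0.78, -0.87 and -1.51. SGMS1, at 42.6%, had a ratio of -0.38 where genes of like GC content had a median of -0.60. SMPD1, at 60.2%, had a ratio of 0.03 where genes of like GC content had 0.42. CERS4, at 57.5%, had -0.21 against 0.46, and SMPD4, at 60.5%, had 0.61 against 0.43. The mean of the libraries labelled PA over BSA replicate 1 had a median of -0.61 in genes with the GC content of SGMS1, and SGMS1 itself had 0.99. In genes with the GC content of SMPD1 that median was 0.40, and SMPD1 had 2.15. Over BSA replicate 2 the medians were 0.02 at the GC content of SGMS1 and -0.04 at that of SMPD1. Over that library SGMS1 had 1.37 and SMPD1 had 2.12. With a trend over GC content and length removed, edgeR called SMPD1 (log2 fold change 1.96 ± 0.22 SE, adjusted p = 0.0216) and SGMS1 (1.45 ± 0.22, adjusted p = 0.0303) and no other gene of the 10, where 4.91% of all genes were called higher and 2.46% lower. By an unadjusted p under 0.05, 7 of the 10 were higher and 0 lower in that fit, against 15.5% of all genes higher and 15% lower. In that fit CERS6, SGMS2 and UGCG had log2 fold changes of 0.49, 0.77 and 0.99. None of these passed by adjusted p (0.418, 0.095 and 0.0931), but SGMS2 and UGCG were among the 7 by unadjusted p. In trend-corrected CPM both PA libraries lay above both BSA libraries for each of them. CERS6 stood at 11.64 and 5.89 in BSA and at 12.55 and 12.17 in the libraries labelled PA. SGMS2 stood at 10.38 and 9.871 against 16.73 and 17.71, and UGCG at 29.11 and 17.44 against 46.66 and 46.16.

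**Figure D3:**
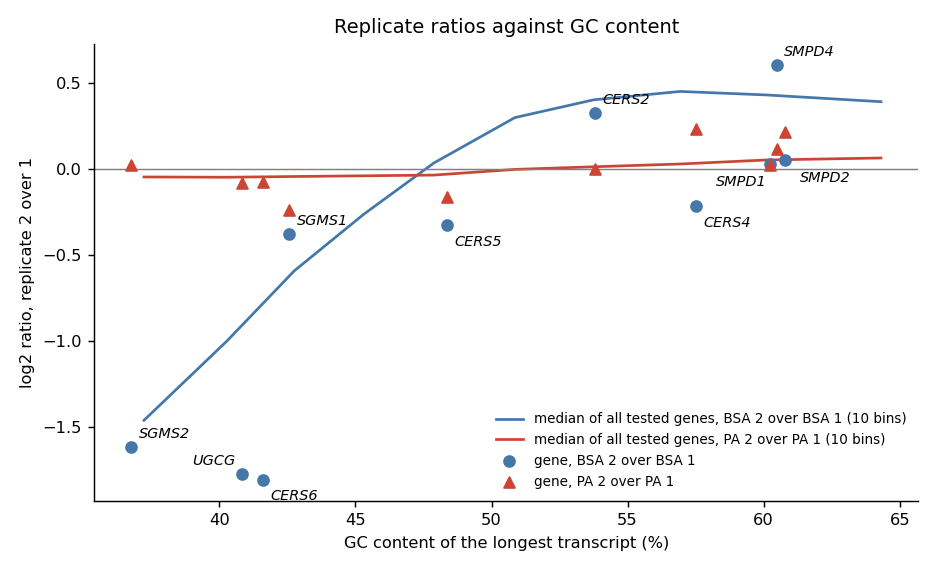
Log2 ratio of replicate 2 over replicate 1 against the GC content of each gene's longest transcript, for the 10 genes (points) and as medians over all tested genes in 10 bins of GC content (lines), for BSA (blue) and for the libraries labelled PA (red). SGMS2, UGCG and CERS6 lie at the low end of the BSA ratio (-1.61 to -1.81), and the PA ratios of the 10 genes lie near 0 (-0.24 to 0.23).

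Shares within an enzyme family compare genes per length inside a library, so library size cancels. SMPD1 made up 24.3% and 19.3% of the summed FPKM of the 3 sphingomyelinases in BSA and 49.0% and 46.9% in the libraries labelled PA. SMPD4 made up 52.9% and 62.5% in BSA and 34.4% and 35.0% in the libraries labelled PA. Which of these genes was the more abundant in the libraries labelled PA depended on the gene length used. The authors' length for SMPD4 is 9171 bases and its longest GENCODE transcript 4896. In CPM per length of the longest transcript SMPD1 held 39.2% and 37.3% there and SMPD4 46.0% and 46.7%, so that SMPD4 was the more abundant in every library. The SMPD1 share was 26.2 percentage points higher, more than the spread between replicates (SD 3.59 in BSA and 1.51 in PA), but with 2 libraries a group the two-sided exact permutation p cannot be smaller than 0.333, the value it had. The summed FPKM of the 3 genes was 23.3 and 29.04 in BSA and 47.9 and 50.4 in the libraries labelled PA. SGMS2 made up 36.0% and 19.3% of the sphingomyelin synthase FPKM in BSA and 14.8% and 17.2% in the libraries labelled PA, without overlap. The difference of -11.7 percentage points was smaller than the SD between the BSA libraries (11.8; exact permutation p = 0.333). With the GC and length trend removed the SGMS2 share was 28.3% and 22.3% in BSA and 16.0% and 18.5% in the libraries labelled PA. That difference of -8.06 percentage points exceeded the SD between the BSA libraries (4.21; exact permutation p = 0.333). The CERS2 share was 71.6% and 81.8% in BSA and 72.5% and 73.4% in the libraries labelled PA, with both PA values between the BSA values. With the GC and length trend removed it was 75.4% and 80.4% in BSA and 72.0% and 72.6% in the libraries labelled PA, both below BSA, a difference of -5.59 percentage points (exact permutation p = 0.333). The CERS4 share was 4.11% and 3.24% in BSA and 5.90% and 7.00% in the libraries labelled PA, without overlap (exact permutation p = 0.333). CERS6 held 5.91% and 1.54% in BSA and 2.92% and 2.80% in the libraries labelled PA.

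**Figure D4:**
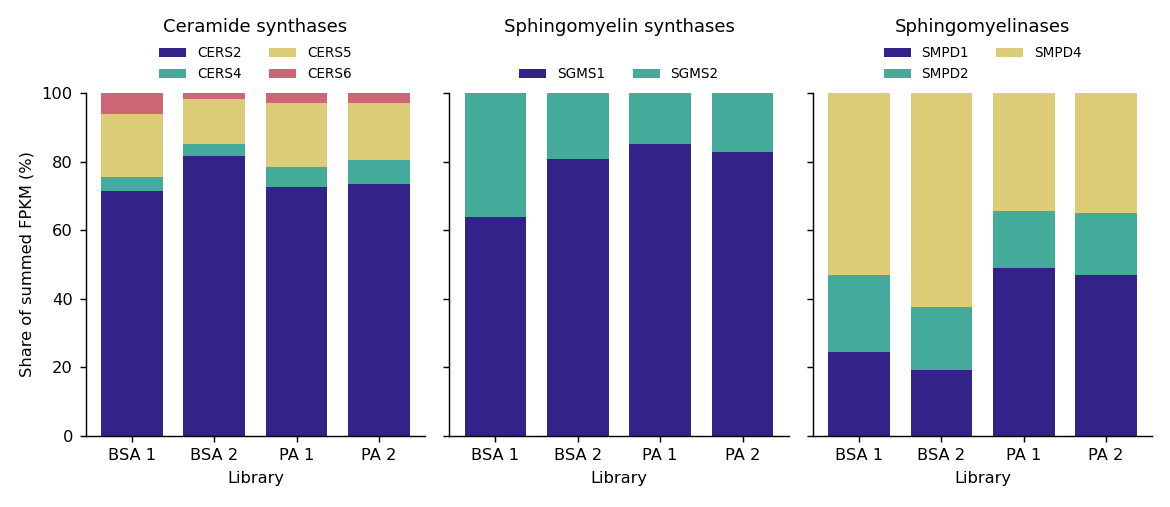
Share of the summed FPKM of each enzyme family held by each gene (stacked bars, in percent), by library. In the libraries labelled PA, SMPD1 holds 49.0% and 46.9% of the sphingomyelinase sum, against 24.3% and 19.3% in BSA.

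By mean FPKM the order of the 10 genes in BSA ran from CERS2 and SMPD4 at the top through CERS5, UGCG, SMPD1, SMPD2 and SGMS1 to SGMS2, CERS6 and CERS4. In BSA the values of CERS5, UGCG and SMPD1 overlapped between neighbours in this order, as did those of SGMS2, CERS6 and CERS4, while SMPD1, SMPD2 and SGMS1 did not overlap but lay close. In the libraries labelled PA, SMPD1 stood at rank 2 in FPKM, against rank 5 in BSA. Per length of the longest transcript it stood at rank 3, below SMPD4, against rank 7 in BSA. The FPKM values of CERS5, SGMS1, UGCG and SMPD2 overlapped between neighbours there. The CERS2 level lay at percentile 93.6 of all tested genes by mean FPKM over the 4 libraries, and CERS6, the lowest of the 10, at percentile 37.4.

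The rest of the sphingolipid pathway was taken from a list of 55 genes, of which 51 were in the table and 48 were tested. The list was chosen with earlier results of these data known, so its counts describe these data and carry no test. With edgeR 0 passed at an adjusted p under 0.05 in either direction. By unadjusted p under 0.05, 14 of the 48 were higher (against 13.1% of all genes) and 7 lower (against 11.2%), and the median log2 fold change was 0.32. Both PA libraries lay above both BSA libraries for 23 of them, against 28.9% of all genes, and below for 11, against 29.1%. Among the 10 tested genes of glycosphingolipid breakdown, which are lysosomal like SMPD1 with the exception of the non-lysosomal glucosylceramidase GBA2, all log2 fold changes were positive, with a median of 0.89. By unadjusted p under 0.05, 6 of these 10 were higher, against 13.1% of all genes. For 9 of the 10 the PA libraries lay above both BSA libraries, against 28.9% of all genes. GBA2 was the exception, with a log2 fold change of 0.03. PSAP, whose product is cut into the saposins that help lysosomal enzymes reach their lipids, stood at 524 and 487 CPM in BSA and at 2518 and 2535 in the libraries labelled PA, a log2 fold change of 2.32 ± 0.25 (SE; edgeR adjusted p = 0.0589). NEU1, a lysosomal sialidase, stood at 31.7 and 55.8 CPM in BSA and at 248 and 269 in the libraries labelled PA, a log2 fold change of 2.56 ± 0.34 (SE; edgeR adjusted p = 0.0624).

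Further genes of the pathway had differences of both signs. Among the genes of de novo synthesis 6 of 10 were positive (median 0.21), with 2 higher and 2 lower at an unadjusted p under 0.05. Over all genes 13.1% were higher and 11.2% lower by that rule, the background for each group here. ORMDL3, which restrains serine palmitoyltransferase, stood at 13.7 and 18.5 CPM in BSA and at 48.1 and 52.4 in the libraries labelled PA (log2 fold change 1.64 ± 0.28 SE; edgeR adjusted p = 0.0767). SPTSSA, a small subunit of that enzyme, stood at 38.7 and 24.8 CPM in BSA and at 18.1 and 16.6 in the libraries labelled PA (-0.87 ± 0.33 SE; edgeR adjusted p = 0.201). Among 9 tested genes of ceramidases and sphingosine-1-phosphate, 2 were higher and 2 lower at an unadjusted p under 0.05. ACER2, a ceramidase of the Golgi, stood at 0.87 and 0.847 CPM in BSA and at 3.37 and 3.61 in the libraries labelled PA. The log2 fold change of ACER2 was 2.02 ± 0.35 (SE, edgeR adjusted p = 0.0767). SGPP2, a phosphatase of sphingosine-1-phosphate, stood at 2.75 and 3.70 CPM in BSA and at 0.206 and 0.391 in the libraries labelled PA. Its log2 fold change was -3.44 ± 0.50 (SE, edgeR adjusted p = 0.069). The sphingosine kinase gene SPHK2 stood at 14.1 and 21.0 CPM in BSA and at 8.15 and 5.09 in the libraries labelled PA. Its log2 fold change was -1.41 ± 0.41 (SE, edgeR adjusted p = 0.142). Among the 7 tested genes of glycosphingolipid synthesis 3 were higher and 0 lower by the same rule, with a median log2 fold change of 0.76. Among the 6 genes of ceramide and glycolipid transfer 2 were lower and 0 higher at an unadjusted p under 0.05. VAPA, which anchors the ceramide transfer protein to the endoplasmic reticulum, stood at 287 and 131 CPM in BSA and at 85.3 and 87.3 in the libraries labelled PA. The gap between the BSA libraries was larger than that from BSA replicate 2 to the PA libraries. The log2 fold change of VAPA was -1.275 ± 0.41 (SE, edgeR adjusted p = 0.161).

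**Figure D5:**
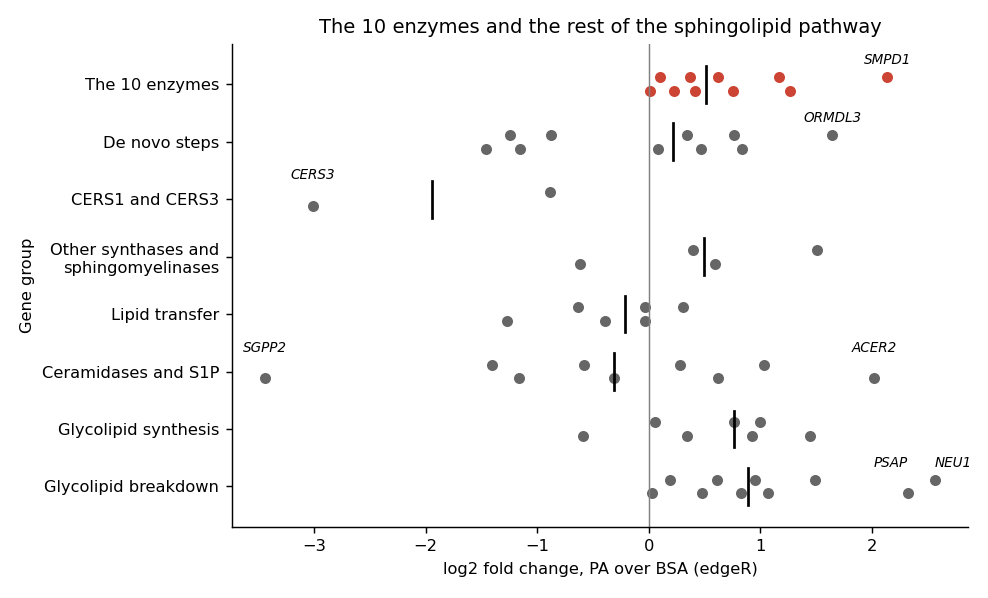
Log2 fold change (PA over BSA, edgeR) of the 10 enzymes (red) and of the 48 other tested sphingolipid genes in 7 groups (grey), with 1 point per gene and a black bar at each group's median. Points of the glycolipid breakdown group lie right of 0 (0.03 to 2.56), and SMPD1 (2.14) lies furthest right among the 10 enzymes.

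The remaining genes of these enzyme families were mostly low. CERS1 and CERS3 stood at or below 2.89 CPM in every library, and CERS3 rested on 13 and 18 counts in BSA and 1 and 2 counts in the libraries labelled PA. For both genes the libraries labelled PA lay below both BSA libraries. The log2 fold change of CERS1 was -0.88 ± 0.45 (SE; edgeR adjusted p = 0.281) and that of CERS3 -3.01 ± 0.70 (SE; edgeR adjusted p = 0.102). The neutral sphingomyelinase gene SMPD3 stood at 4.25 and 2.54 CPM in BSA and at 2.51 and 1.91 in the libraries labelled PA. These groups did not overlap either, by a narrow margin (log2 fold change -0.61 ± 0.42 SE; edgeR adjusted p = 0.393). SMPDL3B, which encodes a relative of acid sphingomyelinase, stood at 0.669 and 0.596 CPM in BSA and at 1.82 and 1.78 in the libraries labelled PA, without overlap (log2 fold change 1.51 ± 0.38 SE; edgeR adjusted p = 0.116). SMPDL3A rested on 7 to 30 counts per library, and its groups overlapped. SAMD8, which encodes a relative of the sphingomyelin synthases, stood at 72.2 and 26.7 CPM in BSA and at 70.8 and 59.1 in the libraries labelled PA, the pattern of wide BSA values also seen in CERS6, SGMS2 and UGCG.

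Profiles over the 4 libraries were compared as log2 CPM centred on each gene's mean, with each of the 10 genes set against 57 others of the 10 and the pathway list. The nearest profile to SMPD1 was that of ACER2 (Euclidean distance 0.134 on the log2 scale). The nearest to SMPD2 was A4GALT (0.0122), to SGMS1 B4GALT5 (0.211), to CERS4 GLB1 (0.229), to CERS5 GLA (0.182), to CERS2 ARSA (0.193) and to SMPD4 GBA2 (0.238). SGMS2 and CERS6 shared B3GNT5 as nearest profile (0.0774 and 0.161), and the nearest to UGCG was CERT1 (0.279). With 4 libraries these distances describe the libraries and carry no test.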

How the data were processed

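The table and its labels were used as deposited. The submitters' processing notes name HISAT2, StringTie, SAMtools and hg38 without versions. Strand handling, counter and annotation release were not given in the sources used here. Per the labels the libraries were prepared with NEBNext Ultra RNA reagents. The deposited columns held raw read counts per gene, whole numbers per the file headers, and FPKM by the authors. Groups came from the sample titles.

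The main test was edgeR 4.0.16 under R 4.3.3 (TMM factors, filterByExpr, quasi-likelihood F test, group as the single term), adjusted by Benjamini-Hochberg over all 17449 genes tested. Each SE is the log2 fold change over the root of its F value. CPM values use TMM factors. Replicates were not copies: the median chi-square per gene was 23.7 between BSA and 2.01 between PA replicates, where sampling alone gives 0.455. Levels between genes were compared in FPKM. GC content and length were those of the longest transcript in GENCODE 29, found for 95.1% of tested genes. The procedure was also run on simulated counts with the same spread in both groups and no GC trend. That run does not cover the wider, GC-linked spread of the BSA libraries.

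The genes and lists were chosen with earlier results of these data known. Pathway genes with full values were the 4 largest rises and 4 largest falls by log2 fold change among those with an unadjusted p under 0.05, no overlap between groups and a mean of 1 CPM or more. The nearest profiles were named by distance, and SPTLC2 and ZDHHC15 as checks of the labels. The 10 genes were always named. CERS1, CERS3, SMPD3, SMPDL3A, SMPDL3B, SAMD8, GBA2 and the overlapping genes were named after their values were seen. List genes without a row (4 of 55) are not analysed here.

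There were 15 alternatives: DESeq2 1.42.0; limma-voom; limma 3.58.1 on log2(FPKM + 1) or log2(FPKM + 0.1); upper-quartile or RLE factors; a filter of 1 CPM in 2 libraries, or none; the replicate number as block; each library left out; and offsets that remove a loess surface (span 0.3) of GC content and log2 length, with and without the block. Shares were also computed from CPM, from trend-corrected values and without each library, and, chosen after seeing the data, from CPM per length of the longest transcript. Figures were drawn with matplotlib 3.10.9.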

Additional observations from a re-analysis of the deposited data

How the results depend on the processing

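Of the 10 log2 fold changes under 15 alternatives (150 values), 119 kept both direction and side of the threshold, 24 kept the direction and passed, and 7 changed sign. The sign changes were SMPD4 with the GC and length trend removed (-0.12, and -0.11 with the block), SGMS2 with a filter of 1 CPM (-0.0041), SMPD4 without BSA replicate 1 (-0.022, and up to 0.58 without another library), and CERS6 (-0.52), SGMS2 (-0.57) and UGCG (-0.20) without BSA replicate 2. Without BSA replicate 1 those 3 were 1.29, 1.05 and 1.58. Their cause was not tested. The 0 genes called became 1768 with DESeq2, 1302 without a filter, 1224 with the trend removed, and 1 with limma-voom and on both FPKM scales. The 0 of the 10 enzymes became 3 with DESeq2, 1 without a filter and 2 with the trend removed, all higher. The 0 pathway genes became 8 (6 higher), 7 (6 higher) and 10 (9 higher). Of all genes these fits called 6.04%, 3.06% and 4.91% higher and 4.41%, 1.66% and 2.46% lower. The 4 enzymes at an unadjusted p under 0.05 became 7 with the trend removed, where 15.5% of all genes were higher and 15% lower. Leaving out a library gave 9 to 10467 genes, 0 to 9 enzymes and 0 to 39 pathway genes called, and 1 to 9 enzymes and 7 to 39 pathway genes at an unadjusted p under 0.05, against 3.48% to 31.9% of all genes in a single direction. In fits with 1 BSA library, that library is assumed to vary like the PA replicates, and in fits with 1 PA library that library like the BSA replicates.

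Deviations from the group mean had a correlation of 0.0084 between libraries of the same replicate number. As the BSA deviations moved with GC content, this value cannot show whether or not the libraries were paired. With a replicate block edgeR called 537 genes, 1 enzyme (SMPD1, adjusted p = 0.0219) and 4 pathway genes. These were 1380, 2 and 12 with the block and the trend removed. The called enzymes were higher, as were 3 of the 4 and 10 of the 12 pathway genes. Of all genes 2.3% were called higher and 0.774% lower with the block, and 5.38% and 2.93% with the trend also removed.

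The SMPD1 share difference was 17.5 percentage points on CPM and 22.8 on CPM per length of the longest transcript, an alternative chosen after seeing the data, against 26.2 on FPKM. Without BSA replicate 2 the CERS2 share difference was 1.36 points, against -3.75, and that of CERS5 -0.65 (4.34 without BSA replicate 1). The CERS6 share difference was 0.33 points with the trend removed and 1.31 without BSA replicate 1 (-3.06 without BSA replicate 2), against -0.87. The share differences without each library ran from -8.87 to 1.36 points for CERS2, from -20.03 to -3.28 for SGMS2 and from 23.6 to 28.7 for SMPD1. Counts of CERS6 and SGMS2 ran from 151 to 634 per library, so their values rest on fewer reads than those of CERS2 (4060 to 5746). Counts ran from 188 to 409 for CERS4, 312 to 484 for SMPD2, 440 to 1408 for UGCG and 3245 to 5274 for SMPD4. CERS4 and SMPD2 kept their sign in all 15 alternatives, while UGCG and SMPD4 changed sign in some. CERS4 and SMPD2 also had larger log2 fold changes in the main test (1.265 and 0.76) than CERS6 and SGMS2 (0.10 and 0.01). Whether read number bears on the sign changes was not tested.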

Other observations

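The long noncoding gene SGMS1-AS1, on the opposite strand to SGMS1 with 1698 bases of overlap in the table, had values of the opposite direction. It held 113 and 97 counts in BSA, against 20 and 12 in the libraries labelled PA. In CPM these were 3.78 and 3.04 against 0.688 and 0.522, without overlap between the groups. The log2 fold change was -2.48 ± 0.40 (SE; edgeR adjusted p = 0.0714), where that of SGMS1 was 1.17. Without strand in the counting, reads of the overlap cannot be told apart. A further long noncoding gene on that strand, ENSG00000286401, overlaps SGMS1 over 15889 bases and had values in the direction of SGMS1. It held 5 and 1 counts in BSA and 16 and 15 in the libraries labelled PA (log2 fold change 2.56 ± 0.77 SE; edgeR adjusted p = 0.148). Both genes were chosen after their values were seen.

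SETDB1, which overlaps CERS2 on the opposite strand, stood at 62.7 and 75.9 CPM in BSA and at 61.9 and 50.9 in the libraries labelled PA (log2 fold change -0.30 ± 0.24 SE; edgeR adjusted p = 0.467).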
